A study of Mus musculus with 2 samples.

Results

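The mitochondrial solute carriers were taken as every annotated gene whose symbol starts with Slc25, which gave 48 of 55536 genes. Of these, 47 were protein-coding and 1, Slc25a5-ps, was a pseudogene, and 4 lay on the X chromosome. The rule used names only and no measured value, though it was set with earlier results of these data known. Slc25a52 was not found in the annotation used here, and the relatives that carry other symbols, such as the uncoupling proteins, were not members.

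The levels come from total RNA sequencing of the left cerebral cortex of 2 male mice, replicates 1 and 2, from a cross of 5xFAD with CAST. The mice were adults 8 to 10 months old, 300 ng of RNA went into each library, and ERCC spike-in RNA was added. In the 5xFAD line the neuronal Thy1 promoter drives human transgenes that carry familial Alzheimer mutations, and CAST is a wild-derived mouse strain. Both animals belonged to this 1 group and shared a strain-level donor label under separate sample labels, and mice without the transgenes were not analysed here. The data therefore hold no contrast of genotype, and what follows describes the carriers' levels and how the 2 animals differ.

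Carriers of this family sit mostly in the inner mitochondrial membrane, where each moves a small set of metabolites, often as an exchange of a molecule inside for a molecule outside. They bring ADP and phosphate to the ATP synthase and carry ATP out, pass reducing equivalents from the cytosol inward, and supply amino acids, nucleotides, cofactors and iron. In brain the malate-aspartate shuttle and the glutamate carriers also connect mitochondria to the metabolism of the transmitter glutamate.

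Reads on annotated genes (rounded expected counts) summed to 33925198 in replicate 1 and 32380299 in replicate 2. The libraries held the markers of cortex: the 7 excitatory neuron genes checked summed to 2354 and 2545 TPM, a level per length that is scaled to the same total in each library, the 5 astrocyte genes to 1285 and 1289, and the 5 oligodendrocyte genes to 1439 and 1427. The animals stood apart in the 7 choroid plexus markers, led by Ttr, which summed to 556 TPM in replicate 1 and 107 in replicate 2. Small structural RNAs took 37.9% of TPM in replicate 1 and 35.2% in replicate 2, and the mitochondrial chromosome 13.0% and 12.3%. The median ratio of TPM, replicate 1 over replicate 2, was -0.12 on the log2 scale over detected protein-coding genes. In tissue of many cell types, fewer cells of a type and less RNA per cell cannot be told apart.

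Sequences of related members show how far their reads can be kept apart. The coding sequences of Slc25a4 and Slc25a5, which encode the main ADP/ATP translocators, were 78.6% identical over 888 aligned bases, with 20 bases as the longest identical run. The 120 coding bases around that run are printed from the GENCODE M21 transcripts of Slc25a4 (mm10, chr8:46209229-46209348, minus strand) and Slc25a5 (chrX:36797003-36797122, plus strand), 5′ to 3′ along the transcript, with the 95 identical bases in capitals.
Slc25a4: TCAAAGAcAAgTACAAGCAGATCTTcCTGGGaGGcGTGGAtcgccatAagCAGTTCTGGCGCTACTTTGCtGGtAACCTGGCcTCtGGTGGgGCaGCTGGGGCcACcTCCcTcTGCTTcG
Slc25a5: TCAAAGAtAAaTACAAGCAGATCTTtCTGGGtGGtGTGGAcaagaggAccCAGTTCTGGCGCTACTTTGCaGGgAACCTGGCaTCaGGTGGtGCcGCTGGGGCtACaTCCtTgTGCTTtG
Mismatches lie on both sides of the run, and none of the 100-base stretches of Slc25a4 occurred in another gene. For Slc25a5, 8.33% did, mainly in the pseudogene Gm5560. Identity was lower in the other 6 pairs compared here, between 64.8% for Slc25a39 with Slc25a40 and 73.5% for Slc25a37 with Slc25a28, with identical runs of 23 bases at most. Some of their members shared 100-base stretches with genes outside the pair. This share was 10.2% for Slc25a33, mainly with Gm13068, which overlaps it on the opposite strand, 6.11% for Slc25a37 and 4.48% for Slc25a36. It was at most 3.48% for the rest.

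In this cortex 39 of the 48 members were detected, at 1 TPM or more in both animals. That is 81.2% of the family, beside 59.4% of 22028 protein-coding genes and 26.7% of all genes. The median over all 48 members was 10.5 TPM (10.4 in replicate 1 and 10.7 in replicate 2), beside 3.91 TPM over protein-coding genes. Among detected genes alone the median was 16.2 TPM over members and 15.02 TPM over protein-coding genes. The members together took 0.207% of the gene reads in replicate 1 (95% Clopper-Pearson interval 0.206 to 0.209%) and 0.209% in replicate 2 (0.207 to 0.210%).

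**Figure D1:**
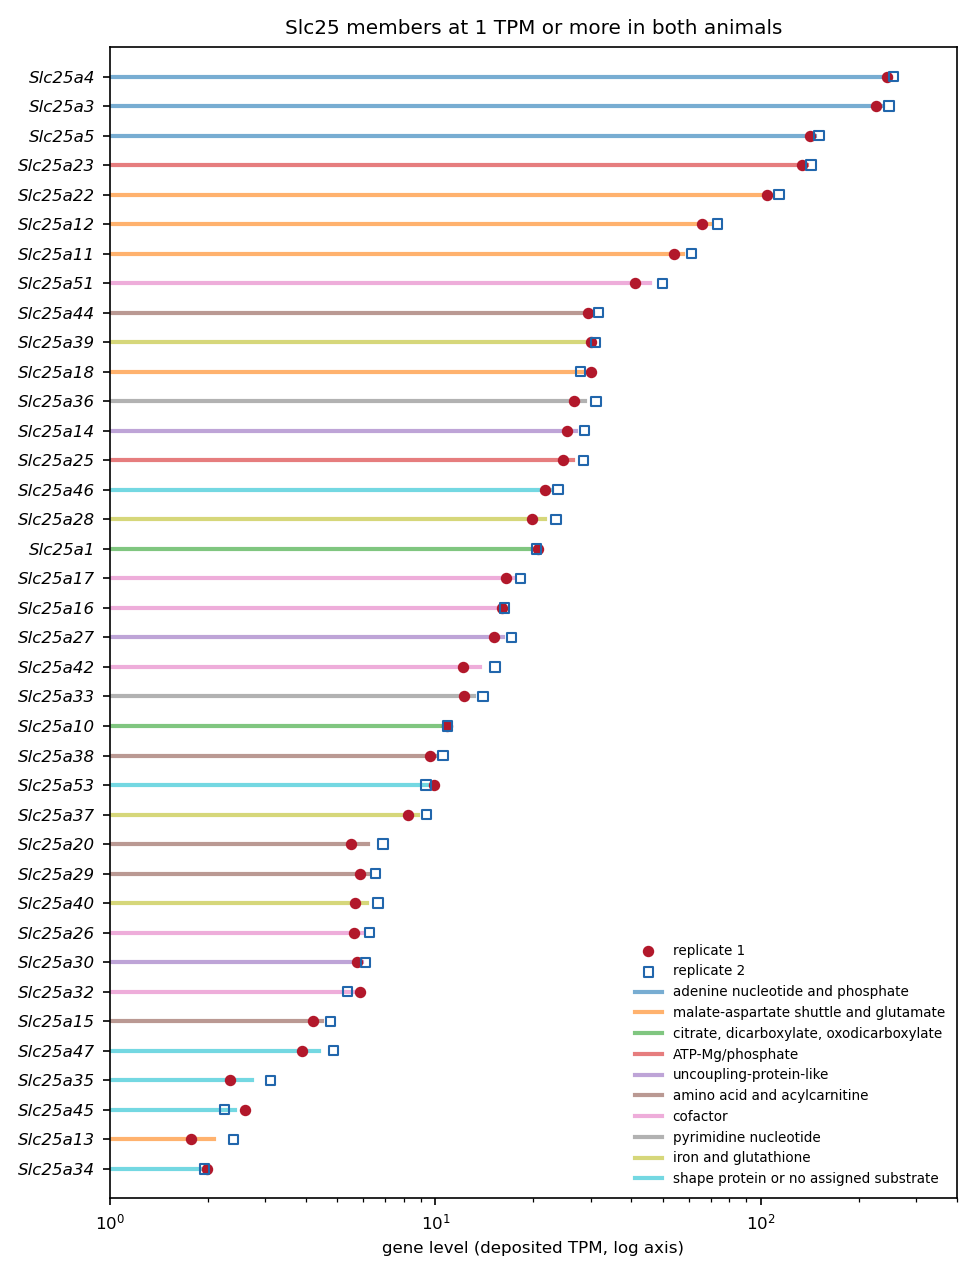
Level of 38 of the 39 detected members, in deposited TPM on a log axis, sorted by the mean, with filled circles for replicate 1, open squares for replicate 2 and the line to the mean coloured by role. Slc25a4 and Slc25a3 lead in both animals, and the markers of the 2 animals lie close together against the range of levels.

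A few carriers held most of the family's RNA. The 3 highest took 42.5% of the members' summed TPM, the 5 highest 59.1% and the 10 highest 74.8%. The 8 highest stood in the same order in both animals: Slc25a4, Slc25a3, Slc25a5, Slc25a23, Slc25a22, Slc25a12, Slc25a11 and Slc25a51. Below them neighbours changed places: Slc25a44, Slc25a39 and Slc25a18 had 29.4, 30.0 and 30.1 TPM in replicate 1 and 31.7, 30.99 and 27.9 TPM in replicate 2. These 3 do not differ beyond the spread between the animals. Over the detected members, the SD of the 2 animals had a median of 7.74% of the mean.

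The carriers that serve ATP synthesis were the most abundant. Slc25a4, the translocator ANT1 (ENSMUSG00000031633.4, mm10 chromosome 8, 46206797 to 46211284, minus strand), had 245 TPM in replicate 1 and 255 in replicate 2, or 249.9 ± 7.56 TPM (SD, n = 2). Slc25a5, the translocator ANT2 that dividing cells favour, had 142 and 151 TPM. Slc25a4 was higher in both animals, by 0.77 ± 0.02 on the log2 scale of TPM or 1.71-fold. It made up 63.3% of translocator TPM in replicate 1 and 62.8% in replicate 2. Slc25a31, the translocator ANT4 of male germ cells, had 15 reads in replicate 1 and 6 in replicate 2, at 0.30 and 0.13 TPM, and the germ cell markers Prm1 and Tnp1 had 0 reads in both libraries. Slc25a3, the phosphate carrier, had 225 and 247 TPM. The translocators together stood 1.71 times above Slc25a3 in replicate 1 and 1.64 times above it in replicate 2, per length.

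Slc25a3 makes 2 forms of the phosphate carrier through a pair of mutually exclusive exons, of which the longer form is known from heart and skeletal muscle. The exons are printed because the choice between them decides the form. They lie on the minus strand of chromosome 10 of mm10, at chr10:91122207-91122331 for the 125-base exon of the longer form and at chr10:91121922-91122043 for the 122-base exon of the shorter form, and both are coding. Capitals mark the 80 identical bases of 121 aligned (66.1%).
longer form: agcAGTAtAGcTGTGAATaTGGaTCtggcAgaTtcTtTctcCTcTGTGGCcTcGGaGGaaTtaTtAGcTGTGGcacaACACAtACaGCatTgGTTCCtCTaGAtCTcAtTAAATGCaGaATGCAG
shorter form: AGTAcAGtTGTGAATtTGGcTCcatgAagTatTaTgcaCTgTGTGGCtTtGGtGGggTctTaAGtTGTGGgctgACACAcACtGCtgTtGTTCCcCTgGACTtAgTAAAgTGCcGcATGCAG
Nearly all of the coding RNA of the gene carried the exon of the shorter form. The longer form had 4.45 TPM in replicate 1 and 3.58 in replicate 2, and the shorter form 202 and 209 TPM over its 2 coding transcripts. The longer form was thus 2.16% of the total of both forms in replicate 1 and 1.69% in replicate 2, and 2.40% and 2.01% in the kallisto-format table. Cardiac and skeletal muscle markers were low in the same libraries: the 5 checked summed to 23.7 TPM in replicate 1 and 25.3 in replicate 2.

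Of the malate-aspartate shuttle, Slc25a12 and Slc25a11 were also among the 8 highest members, while the paralog of Slc25a12 was low. Slc25a12, the calcium-activated aspartate/glutamate carrier aralar, had 66.0 TPM in replicate 1 and 73.5 in replicate 2. Slc25a13, its paralog citrin, best known from liver, had 1.77 and 2.40 TPM. The gap was 5.08 ± 0.20 on the log2 scale of TPM, or 33.8-fold, the widest of the 7 pairs by gene level. Counted on coding transcripts alone, the gap was 2.60 ± 0.08, and that of Slc25a39 to Slc25a40 was then wider, at 3.15 ± 0.22. Slc25a13 had only 119 reads in replicate 1 and 128 in replicate 2. Coding transcripts held 81.9% of it on average, but 47.2% in the kallisto-format table, for which the coding gap is not given. Slc25a11, which exchanges oxoglutarate for malate in the same shuttle, had 54.2 TPM in replicate 1 and 61.1 in replicate 2. The enzymes of the shuttle stood higher still: Mdh1 averaged 346 TPM, Mdh2 178, Got1 173 and Got2 104. The enzymes of the glycerol phosphate shuttle, which does the same work without a carrier, averaged 29.8 TPM for Gpd1 and 38.7 for Gpd2.

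Of the glutamate carriers, Slc25a22 had 104 TPM in replicate 1 and 113 in replicate 2. Slc25a18, its paralog, had 30.1 and 27.9 TPM. The gap was 1.91 ± 0.17 on the log2 scale of TPM, or 3.75-fold. In brain Slc25a18 is known mainly from astrocytes, while the bulk level here is not resolved by cell type.

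Carriers of other carboxylates were low to moderate. Slc25a1, the citrate carrier, had 20.7 TPM in replicate 1 and 20.5 in replicate 2, and Slc25a10, the dicarboxylate carrier, had 10.9 TPM in both. Slc25a21, the oxodicarboxylate carrier, fell short of detection with 22 and 15 reads. For comparison, the subunits of the pyruvate carrier, which belongs to another family, averaged 75.6 TPM for Mpc1 and 48.9 for Mpc2.

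Of the carriers that exchange ATP-Mg for phosphate and so set the adenine nucleotide content of the matrix, Slc25a23 dominated, with 134 TPM in replicate 1 and 143 in replicate 2. Slc25a25 had 24.6 and 28.4 TPM, a gap of 2.38 ± 0.08 on the log2 scale, or 5.22-fold. Slc25a24 lay at the threshold of detection with 1.08 TPM in replicate 1 and 0.98 in replicate 2, and Slc25a41 had 2 and 3 reads. In the same cortex the channel subunits of calcium uptake averaged 15.5 TPM for Mcu and 63.6 for Smdt1, and the regulators 9.68 TPM for Micu2 and 46.3 for Micu3, while Mcub averaged 1.00 TPM.

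All 3 members that resemble uncoupling proteins were detected. Slc25a14, also called UCP5, averaged 27.1 TPM, Slc25a27, also called UCP4, 16.2 TPM, and Slc25a30 5.93 TPM. Among the uncoupling proteins proper, Ucp2 averaged 41.5 TPM and Ucp3 1.36 TPM, and Ucp1, the protein of brown fat, had 0 reads in replicate 1 and 2 in replicate 2. The outer membrane relatives Mtch1 and Mtch2 averaged 253 and 44.4 TPM.

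Of the 6 amino acid and acylcarnitine carriers, 5 were detected, and their median was 6.20 TPM. Slc25a44, the carrier of branched-chain amino acids, was the highest with a mean of 30.6 TPM, and Slc25a38, which brings in glycine for heme synthesis, averaged 10.1 TPM. Slc25a20, the carnitine/acylcarnitine carrier that feeds fatty acid oxidation, had 5.51 TPM in replicate 1 and 6.90 in replicate 2. The carrier of basic amino acids Slc25a29 averaged 6.20 TPM and the ornithine carrier Slc25a15 4.49 TPM, while Slc25a2, the other ornithine carrier, had 5 and 15 reads.

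All 7 measured cofactor carriers were detected, with a median of 16.2 TPM. Slc25a51, the NAD carrier, led with 41.2 TPM in replicate 1 and 49.8 in replicate 2. Slc25a17, a carrier of the peroxisomal membrane, averaged 17.3 TPM, Slc25a16 16.2 and the coenzyme A carrier Slc25a42 13.7. The S-adenosylmethionine carrier Slc25a26 averaged 5.94 TPM and Slc25a32, linked to folate and FAD, 5.62 TPM.

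Both pyrimidine nucleotide carriers were detected. Slc25a36 had 26.6 TPM in replicate 1 and 31.1 in replicate 2, and Slc25a33 had 12.2 and 14 TPM. The gap was 1.14 ± 0.02 on the log2 scale, or 2.20-fold. Counted on coding transcripts alone, it was 0.33 ± 0.02. The annotation holds only 1 transcript for Slc25a33, a coding one, so this count could lower only the level of Slc25a36.

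The 4 carriers of iron and glutathione were detected as well. Slc25a28, the broadly expressed mitoferrin-2, had 19.8 TPM in replicate 1 and 23.5 in replicate 2, and Slc25a37, the mitoferrin-1 of red cell precursors, had 8.26 and 9.40 TPM. Slc25a37 was lower by -1.29 ± 0.04 on the log2 scale of TPM, but by reads it was the higher of the pair, by 0.25, because its effective length was 4460 bases in replicate 1 and 4795 in replicate 2, against 1594 and 1580 for Slc25a28. Both animals held globin RNA, and the 5 red cell markers summed to 250.5 TPM in replicate 1 and 299.8 in replicate 2. Their part in the level of Slc25a37 was not tested. The glutathione carrier Slc25a39 had 30.0 TPM in replicate 1 and 30.99 in replicate 2, and its paralog Slc25a40 had 5.67 and 6.66 TPM, a gap of 2.31 ± 0.13 on the log2 scale, or 4.96-fold.

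**Figure D2:**
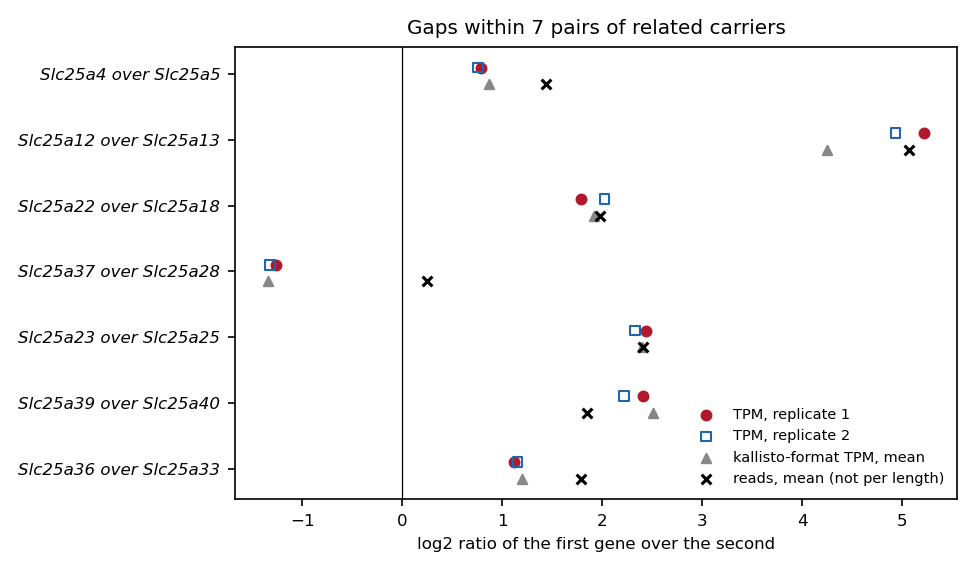
Log2 ratio of the first gene over the second in 7 pairs of related carriers, with filled circles for TPM in replicate 1, open squares for TPM in replicate 2, triangles for the mean in the kallisto-format table and crosses for the mean by reads, which takes no account of length. Which gene of a pair comes first was a choice, so the number of pairs on a side of 0 is no result. By TPM 6 pairs lie right of 0 in both animals, and the pair of Slc25a37 and Slc25a28 lies left of 0 by TPM and right of it by reads.

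The rest have no settled substrate or another function. Slc25a46, an outer membrane protein that takes part in mitochondrial fission and fusion, was the highest of these with a mean of 22.7 TPM. Slc25a53 averaged 9.63 TPM, Slc25a47 4.38, Slc25a35 2.73, Slc25a45 2.43 and Slc25a34 1.97. The genes below detection had few reads: 7 and 8 for Slc25a43, 2 and 3 for Slc25a48, 3 in each library for the pseudogene Slc25a5-ps, and 0 in both for Slc25a54. At this depth 0 reads allow up to 3 reads, or 0.0884 CPM in replicate 1 and 0.0926 in replicate 2.

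The animals were compared by the log2 ratio of replicate 1 over replicate 2 of reads scaled by edgeR's TMM factors. Of the 43 members with at least 10 reads in 1 library, 0 differed by at least 2-fold with a counting interval, set at an error rate of 0.1%, that excluded equal levels, beside 237 of 19484 genes (1.22%). At any fold, this strict interval excluded equality for 3 of 43 members (6.98%), beside 8.76% of genes, so the family's share was near the background. The median member ratio was -0.03, with 18 members higher in replicate 1 and 25 higher in replicate 2. Over all genes with a mean of at least 10 reads the median was 0.0013, and 50.3% were higher in replicate 1. Of the members, 9 were higher in replicate 1 when libraries were scaled by the ERCC totals and 24 in the kallisto-format table. Among members with a mean of at least 100 reads, 36 of 38 (94.7%) had a ratio under 0.25 in size, beside 89.3% of 13084 genes.

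The 3 members were Slc25a18, Slc25a4 and Slc25a23, all higher in replicate 1 by TMM-scaled reads, by DESeq2 size factors and in the kallisto-format table. Slc25a18 had 1363 reads in replicate 1 and 1127 in replicate 2, a log2 ratio of 0.24 (95% counting interval 0.13 to 0.36). Slc25a4 had 11036 and 10160 reads, a ratio of 0.09 (0.05 to 0.12), and Slc25a23 had 10021 and 9266, a ratio of 0.08 (0.04 to 0.12). Intervals cover counting error only. Scaled by the ERCC totals, the ratios were 0.16 for Slc25a18, 0.0039 for Slc25a4 and -0.0024 for Slc25a23, none with a strict interval that excluded equality. The interval did so for Slc25a36 at -0.19 and Slc25a37 at -0.24 instead, 2 of 43 members beside 13.7% of genes. Scaled by total reads, it did so for Slc25a18 alone, at 0.21, 1 of 43 members beside 9.62% of genes. The 5 astrocyte markers were also higher in replicate 1, by 0.10 to 0.16, as were the 5 oligodendrocyte markers, by 0.09 to 0.16, the 4 microglia markers, by 0.14 to 0.25, the 6 inhibitory neuron markers, by 0.01 to 0.17, and the 7 choroid plexus markers, by 1.54 to 2.60. Of the 7 excitatory neuron markers 2 were higher in replicate 1, and their ratios ran from -0.05 to 0.07. Of the 5 red cell markers 3 were higher in replicate 1, with ratios from -0.33 to 0.25, and of the 3 endothelium markers 2 were, with ratios from -0.05 to 0.36. The part of these cell types in the ratio of Slc25a18 was not tested. By TPM, 32 of the 39 detected members were higher in replicate 2, as were 77.3% of detected protein-coding genes, and among them were Slc25a4 and Slc25a23.

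**Figure D3:**
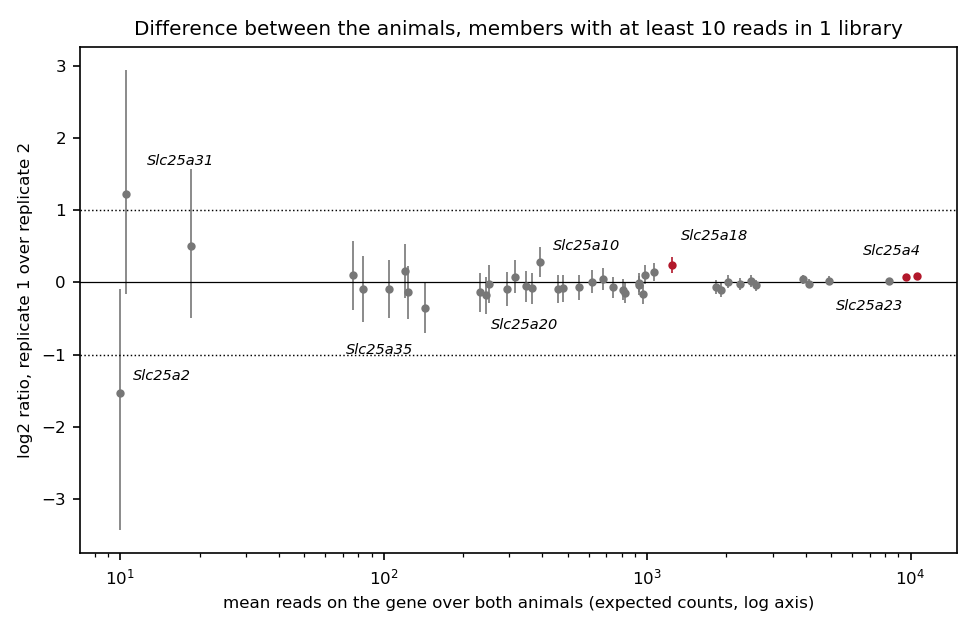
Log2 ratio of replicate 1 over replicate 2 in TMM-scaled reads against mean reads on a log axis for 43 members, with 95% counting intervals as bars, dotted lines at 2-fold and red points where the strict counting interval (error rate 0.1%) excluded equality. Points beyond the dotted lines are Slc25a31 and Slc25a2, each with 15 reads at most in a library, and the red points are Slc25a18, Slc25a4 and Slc25a23, of which Slc25a23 changes sign under ERCC scaling.

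Among members with a mean of at least 100 reads, the others with the largest ratios were Slc25a10 at 0.28, Slc25a34 at 0.16 and Slc25a39 at 0.14, and, on the side of replicate 2, Slc25a35 at -0.36, Slc25a20 at -0.18, Slc25a37 at -0.16 and Slc25a42 at -0.15. None of these had a strict interval that excluded equality. Slc25a10 had 436 reads in replicate 1 and 351 in replicate 2 but 10.9 TPM in both. Its effective length was 1603 bases in replicate 1 and 1446 in replicate 2, which covers only part of this difference. TPM is also scaled to the total of each library. Slc25a35 had 128 and 160 reads, and 31.3% of its exonic bases overlap Rangrf on the opposite strand, where reads of the partners could be mixed if counting ignored strand. Slc25a31 and Slc25a2 had ratios of 1.22 and -1.53, with intervals from -0.16 to 2.94 and from -3.43 to -0.09.

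The tables divide each gene into its annotated transcripts, given as a percent of the gene. Among 41 protein-coding members with at least 10 reads in both libraries, the leading transcript had a median share of 69.7%. This is the transcript with the highest mean share of the 2 animals. It held over 90% in 8 members and under 50% in 11, or 14 in the kallisto-format table. For 3 of the 41 members the annotation holds only 1 transcript, so their leading share was fixed. These 3 are counted among the 8. In 7 members at least 99% of the gene lay on coding transcripts, among them Slc25a18, Slc25a44 and Slc25a27. The annotated transcripts of these named members are all coding, as are those of Slc25a33, Slc25a34 and Slc25a45, so the annotation fixed these shares. The leading transcript was the same in both animals for 36 members and the same in the RSEM-format and kallisto-format tables for 34.

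**Figure D4:**
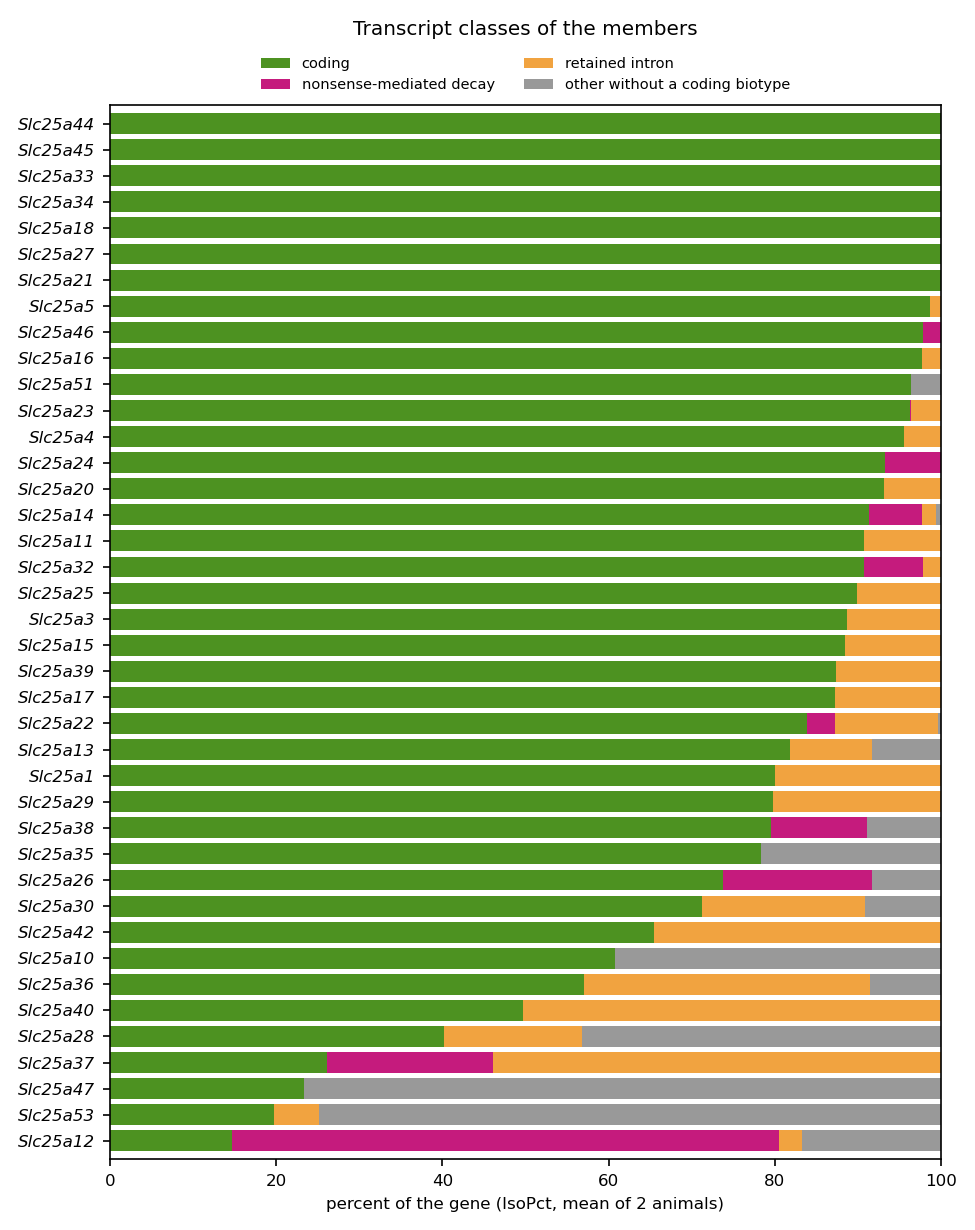
Percent of each gene on coding transcripts, transcripts marked for nonsense-mediated decay, transcripts with a retained intron and others without a coding biotype, as the mean of the 2 animals, for 40 of 41 members sorted by the coding share. Slc25a12, Slc25a53, Slc25a47, Slc25a37, Slc25a28 and Slc25a40, at the bottom, have less than 50% on coding transcripts.

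In 5 members the leading transcript had no coding biotype, or 6 by the shares of replicate 2 alone and 6 in the kallisto-format table. Like counts over all protein-coding genes are not given here, for this or for low leading shares. Neither count is therefore read as a trait of the family. The most abundant of the 5 was Slc25a12 (ENSMUSG00000027010.16, chromosome 2, 71271063 to 71367749, minus strand). Its transcript Slc25a12-207, marked for nonsense-mediated decay, held 66.0% of the gene in replicate 1 and 65.7% in replicate 2, and the coding transcript Slc25a12-206 held 14.7% and 14.6%. In the kallisto-format table they averaged 56.6% and 18.0%. The transcripts differ in 3 places. Slc25a12-207 starts 216 bases later and skips exon 4, of 116 bases, which is not a multiple of 3, and its annotated coding sequence ends after 261 bases, against 2031 in Slc25a12-206. It also ends early, with a last exon of 664 bases against 4291. The skipped coding exon is printed because it separates the decay transcript from the coding one (mm10, chr2:71333605-71333720, minus strand).
Slc25a12 exon 4: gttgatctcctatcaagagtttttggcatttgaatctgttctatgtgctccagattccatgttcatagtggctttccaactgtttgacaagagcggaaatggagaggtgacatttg
Which of these differences gave Slc25a12-207 its share was not tested. Counted on coding transcripts alone, Slc25a12 had 9.72 TPM in replicate 1 and 10.7 in replicate 2, which placed it 21st in the family in place of 6th.

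Slc25a37 was led by Slc25a37-203, which keeps an intron of 1756 bases and held 53.1% of the gene in replicate 1 and 54.7% in replicate 2. Its coding transcript Slc25a37-201 held 19.2% and 33.1%, but 0% and 16.1% in the kallisto-format table. In Slc25a28 the processed transcript Slc25a28-203, of 2 exons, held 42.2% and 44.2%, next to 41.1% and 39.2% on the coding transcript Slc25a28-201. In the RSEM-format tables, coding transcripts averaged 2.36 TPM for Slc25a37 and 8.69 TPM for Slc25a28, a gap of -1.96 ± 0.56 on the log2 scale. The kallisto-format table put 8.03% of Slc25a37 on coding transcripts on average, against 26.2% in the RSEM-format tables, so the level for Slc25a37 depends on the table.

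Most of Slc25a53 and Slc25a47 lay on transcripts without a coding biotype. Slc25a53-211, with 28.1% of the gene in replicate 1 and 36.1% in replicate 2, shares 0 bases with the coding sequence of Slc25a53-214, and all coding transcripts together held 19.7% on average. Slc25a47, a gene of liver, was led on average by Slc25a47-205, with 43.8% in replicate 1 and 22.4% in replicate 2, where Slc25a47-203, also without a coding biotype, stood first with 36.5%. Slc25a47-205 starts 15047 bases upstream of the coding transcript Slc25a47-201 and holds 116 of its coding bases. Coding transcripts averaged 1.89 TPM for Slc25a53 and 1.02 TPM for Slc25a47, beside gene levels of 9.63 and 4.38 TPM. With at most 85 reads in a library, the split within Slc25a47 is loosely set.

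**Figure D5:**
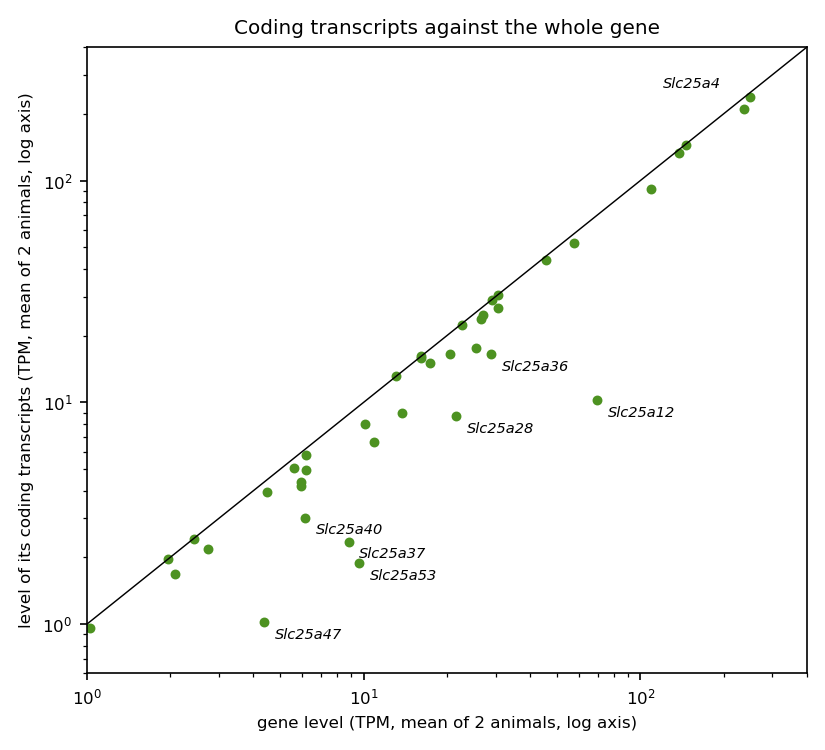
Level of the coding transcripts against the level of the whole gene, both as the mean TPM of 2 animals on log axes, for 40 members, with the line of equality. Most members lie on or just under the line, and Slc25a12, Slc25a53, Slc25a47, Slc25a37, Slc25a28 and Slc25a40 lie farthest below it.

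Low leading shares among members with at least 100 reads in both libraries were those of Slc25a40, Slc25a53, Slc25a36, Slc25a35 and Slc25a28. In Slc25a40 the coding transcript Slc25a40-201 held 30.9% in replicate 1 and 27.9% in replicate 2, where Slc25a40-207, with a retained intron, stood first with 30.7%. Transcripts with a retained intron took 50.3% of the gene on average. In Slc25a36 the coding transcript Slc25a36-202 held 31.9% and 32.8%, and retained introns took 34.5%. In Slc25a35 the coding transcript Slc25a35-201 held 47.4% in replicate 1 and 37.5% in replicate 2, and Slc25a35-202, also coding, held 18.5% and 53.3%. Slc25a35-202 therefore led in replicate 2, and it did in the kallisto-format table too, with 54.4% on average.

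Some splits between coding transcripts did not repeat between the animals or the tables. In Slc25a13 the deposited shares put 87.1% on Slc25a13-203 and 0% on Slc25a13-201 in replicate 1, against 0% and 76.6% in replicate 2, on 119 and 128 reads. Both transcripts have 18 exons and 2028 coding bases. In Slc25a42 the RSEM-format tables gave Slc25a42-201 68.7% in replicate 1 and 62.3% in replicate 2 and Slc25a42-202 0% in both, while the kallisto-format table gave them 4.11% and 60.3% on average, and both have 954 coding bases. Over the family, coding transcripts held 86.5% of the members' TPM in replicate 1 and 84.3% in replicate 2 in the RSEM-format tables. For Slc25a3 they averaged 88.7% there but 61.5% in the kallisto-format table, with 11.2% and 38.5% on transcripts with a retained intron.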

How the data were processed

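Per the deposited description of the files, reads were quantified on mm10 with annotation M21, in RSEM-format tables from alignments to the transcriptome and in kallisto-format tables from the reads. Aligner, program versions and strand setting were not given in the sources used here. Per the file headers, the deposited values are expected counts, TPM and the percent of the gene held by each transcript. TPM is a share of all entries, spike-ins included, so abundant short RNAs lower it for other genes. Effective length is the deposited length over which a gene's reads were spread.

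Expected counts were rounded, scaled by TMM (edgeR 4.0.16, R 4.3.3) and given 0.5 reads per library; intervals are Clopper-Pearson (scipy 1.17.1). The counting rule was tested on simulated data that held counting error alone, so the test does not cover variation between animals. With 1 group of 2 animals no p-value was computed, and the differences describe these libraries. Sequences and exons came from GENCODE M21 transcripts, which use the annotation of the files, aligned with Biopython 1.88. Values were named for the 10 highest members, 7 pairs, the largest ratios, the fewest reads and the transcripts led by non-coding forms or of low leading share. Members, lists and pairs were chosen with earlier results of these data known. Slc25a27, Slc25a44, Slc25a13 and Slc25a42 transcripts were picked after their shares were seen, and so was the coding-level comparison. Alternatives included kallisto-format values, DESeq2 1.42.0 size factors, ERCC totals and leaving out each replicate. The values of 1 member are not reported by name here, and the plots of levels and transcript classes leave it out.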

Additional observations from a re-analysis of the deposited data

How the results depend on the processing

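Of 72 alternative values for 14 results, 51 stayed within the limits set for them (the SD of the animals for a level, 1.5 times for a count, 0.1 for the median ratio), 19 moved and 2 reversed. With 2 animals, leaving out a replicate cannot move their mean by more than their SD. For the pair gaps and the share of reads, the values with a replicate left out therefore stayed by construction. The median member level of 10.5 TPM was 11.2 in the kallisto-format table, 10.9 over protein-coding members, 13.7 over members with a mean of at least 10 reads and 21.1 without the mitochondrial chromosome and small RNAs in the total, and it ranged from 10.4 to 10.7 with either replicate left out. The share of reads was 0.264% of reads on protein-coding genes outside the mitochondrial chromosome. With a 95% interval 1 member differed between the animals, Slc25a2, and under the other alternatives 0 did. The median member ratio was 0.019 in the kallisto-format table, the reverse of -0.03, and -0.11 under ERCC totals, which moved the median of all genes to -0.08. By reads rather than TPM, the gap of Slc25a37 to Slc25a28 reversed to 0.25, that of Slc25a4 to Slc25a5 was 1.44, of Slc25a39 to Slc25a40 1.85 and of Slc25a36 to Slc25a33 1.79, since reads take no account of length. In the kallisto-format table the gaps were 0.87 for Slc25a4, 4.24 for Slc25a12 to Slc25a13, -1.35 for Slc25a37, 2.51 for Slc25a39 and 1.19 for Slc25a36, and with 1 TPM added 4.52 for Slc25a12, -1.20 for Slc25a37, 2.14 for Slc25a39 and 1.08 for Slc25a36; the cause of the kallisto-format differences was not tested. No paired analysis was possible because there was 1 group. With 2 animals the SD has little precision, and on 80 and 73 reads the counting interval of Slc25a24 ran from -0.38 to 0.58.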
